A study of Drosophila melanogaster and Drosophila melanogaster
Drosophila virilis and Drosophila virilis with 9 samples.

Results

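The cells described here are those of the stage 6 *Drosophila melanogaster* embryo that carried mRNA of *ind*, the homeodomain factor of the intermediate column of the neurogenic ectoderm. They were found in the authors' table of 1297 chosen cells, in which each column name ends in a number from the authors, and the 632 columns ending in 3 were taken. Of these 632 cells, 119 had at least 1 UMI (unique molecular identifier, which counts captured mRNA molecules) of *ind*. The 29 that also had *vnd* or *sim* were left out, which left 90 cells, called *ind* cells below. They were set against 364 cells of the same number with no UMI of *vnd*, *sim* or *ind*. Both classes were thus chosen by their UMIs of *ind*, *vnd* and *sim*, so the levels of these 3 genes describe the choice and were not tested.

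Dissociated whole embryos gave 7 Drop-seq libraries, 2 made from mixed *D. melanogaster* and *D. virilis* cells (replicates 1 and 2) and 5 from *D. melanogaster* alone (replicates 3 to 7). Eggs were laid over 1 h, *D. melanogaster* embryos were aged for 2 h 30 min at room temperature, and the cells were fixed in 80% methanol after a 20 µm strainer. Every *D. melanogaster* cell, *ind* cells and comparison cells alike, carried P{vnd::dsRED}, a *vnd* dsRed reporter listed as pDsRed, and the Gal4 transgene P{st.2::Gal4}, in a y1 w1118 background. *D. virilis* cells entered no comparison between classes. The labels do not say whether the libraries came from separate embryo collections, so the p-values measure the spread between libraries, which may be technical.

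At this stage the neurogenic ectoderm on each side of the embryo is divided along the dorsoventral axis into a ventral column marked by *vnd*, an intermediate column marked by *ind* and a lateral column marked by *Dr*. Dorsal, EGF receptor signalling, *vnd* and Dpp set the limits of *ind*: the EGF receptor promotes it, Vnd represses it ventrally, and the repressor Capicua, encoded by *cic*, holds it down where the receptor is silent. The Sox factors SoxN and Dichaete, encoded by *SoxN* and *D*, act with these column genes in the early neural cells. The FGF8-like ligands *ths* and *pyr*, made in the neurogenic ectoderm, signal to the mesoderm beneath it.

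*ind* lies on chromosome 3L at 15042799 to 15043924, minus strand, in the BDGP6.54 annotation, in which 1 other annotated gene overlaps it. The submitters' processing notes name the build BDGP6. The 90 *ind* cells held 2329466 UMIs in all, and each had between 12510 and 88213 UMIs, with a median of 20539. The cells without *ind* had a median of 18844. Per library, the median of the *ind* cells minus that of the cells without was 1684 ± 2920 UMIs (SD, n = 7), positive in 6 of 7 libraries (two-sided exact sign-flip permutation p = 0.203, smallest possible 0.0156). Without replicate 6, where the cells without *ind* were the deeper ones, the difference was 2494 UMIs (exact permutation p = 0.0312, the smallest that 6 libraries allow).

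The cells were spread over all libraries, with 5, 8, 29, 17, 9, 9 and 13 *ind* cells in replicates 1 to 7. They made up 14.7% ± 2.85 (SD, n = 7 libraries) of the cells ending in 3, from 9.76% in replicate 2 to 19.2% in replicate 1, and 14.2% of the pooled cells (exact binomial 95% interval 11.6 to 17.2%). Such intervals cover counting error only. The share depends on how deeply a cell is read. With each cell thinned to 5000 UMIs it was 8.22%, and with at least 2 UMIs of *ind* it was 11.0%.

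*ind* was sparse in many of these cells. It had 1 UMI in 24 of them, 2 to 4 UMIs in 23 and at least 5 UMIs in 43, of which 25 had at least 10. The median was 4 UMIs per cell. The highest cell, in replicate 1, had 105, and the next had 48. The cells just inside the rule are therefore the 24 with 1 UMI, and the cells just outside it are the 364 with 0. Summed per library, *ind* was at 165 CPM (UMIs scaled to a total of 1000000) in the lowest library, 238 in the median one and 956 in replicate 1, which has only 5 *ind* cells.

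Free RNA can place a UMI of *ind* in a cell that does not express it, so its level was read in other cells. Thinned to 12500 UMIs per cell, 15.2% of the cells ending in 3 had *ind* (exact 95% interval 12.5 to 18.2%, median 19654.5 UMIs before thinning). Among the 298 cells ending in 4, the second largest number, 2.68% had it (1.17 to 5.22%, median 24211.5 UMIs), and 5.37% before thinning. The level of *ind* was 52.1 CPM over the former and 3.35 CPM over the latter. Other numbers gave thinned shares from 0% (49 cells ending in 2, 0 to 7.25%) to 8.0% (25 ending in 10, 0.984 to 26.0%). Only the 4 cells ending in 1 lay above that, with 1 cell. The 52 cells ending in 6 were at 7.69% (2.14 to 18.5%) and 9.04 CPM. Whether such cells express *ind* was not tested. In the mixed-species libraries, 3 of 1806 *D. virilis* cells held *D. melanogaster* *ind*, or 0.166% (0.0343 to 0.485%), with medians of 5591 and 9344 UMIs per cell in the pair of libraries. These cells were shallower than the *ind* cells and were not thinned, and most *ind* cells came from the other libraries. Their share may therefore be lower than the one free RNA gives at the depth of the *ind* cells.

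**Figure D1:**
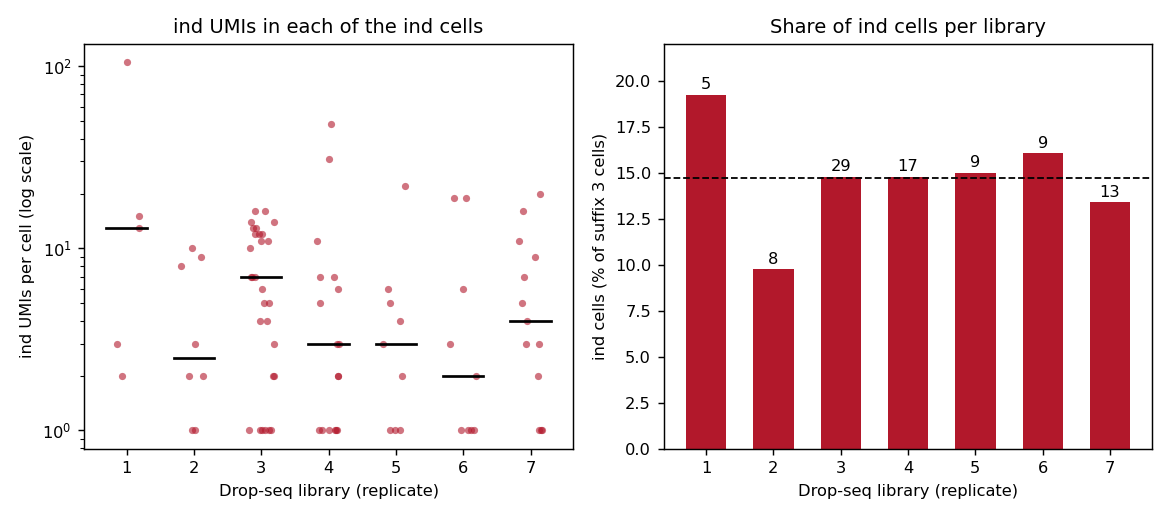
UMIs of *ind* in each of the 90 *ind* cells on a log axis, with a bar at each library's median (left), and *ind* cells as a percentage of the cells ending in 3 in each library, with the number of *ind* cells above each bar and a dashed line at the mean of 14.7% (right). The medians run from 2 to 13 UMIs, and 24 cells sit at 1 UMI.

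*Ind* cells were first compared with cells without *ind*, over all genes, with the UMIs of each class summed per library and the library kept as a block in edgeR's quasi-likelihood test. Of 4420 genes tested, 86 (1.95%) passed a false discovery rate (FDR) of 0.05, of which 41 (0.928%) were higher in *ind* cells and 45 (1.02%) lower. The genes that rose were led by *D*, *brk*, *sog*, *gsb*, *sad*, *sca*, *Lrt*, *SoxN*, *ImpL2* and *ths*. Those that fell were led by *CadN*, *grn*, *bnl*, *twi*, *ventrally-expressed-protein-D*, *mspo*, *edl*, *Sema-2b*, *CG3502* and *Doc1*.

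*D*, on 3L at 14175610 to 14178620, changed most among the genes that rose. It was at 167, 302 and 602 CPM in the lowest, median and highest library of *ind* cells, and at 33.3, 62.6 and 102 CPM in the cells without. No library of *ind* cells was as low as any of the others. The log2 change was 2.46 (SE 0.167, FDR 1.12e-09), higher in 7 of 7 libraries. With cells thinned to 12500 UMIs, *D* was found in 73.3% of the *ind* cells (exact 95% interval 63.0 to 82.1%) and in 29.1% of the cells without (24.5 to 34.1%). *SoxN*, on 2L at 8825645 to 8829670, was at 567, 677 and 914 CPM against 145, 283 and 530 CPM, again without overlap, a log2 change of 1.22 (SE 0.147, FDR 9.75e-06). It was detected in 93.3% and 57.1% of the thinned cells. The third column gene, *Dr*, had a log2 change of -0.59 (FDR 0.78), and 13 of the 90 *ind* cells had it.

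*brk* and *sog* also rose. *brk*, which encodes a repressor of Dpp target genes and lies on X at 7307939 to 7311132, was at 99.3, 152 and 229 CPM in *ind* cells and at 22.6, 37.7 and 48.4 CPM in the cells without. *sog*, which encodes a secreted antagonist of Dpp and lies on X at 15603283 to 15633434, was at 283, 435 and 792 CPM against 90.5, 130 and 208 CPM. For both genes the lowest library of *ind* cells was above the highest of the others, with log2 changes of 2.05 (SE 0.172, FDR 3.83e-08) and 1.69 (SE 0.193, FDR 5.93e-06). The ligand gene *dpp* itself fell, from a mean of 74.7 ± 8.30 to 33.5 ± 29.8 CPM (SD, n = 7), with a log2 change of -1.25 (FDR 0.00956). It was lower in 6 of 7 libraries, with replicate 2 the other way, and the call was lost without replicate 3 (FDR 0.107) or replicate 4 (FDR 0.0709).

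Among the 11 dorsoventral genes of the ectoderm that could be tested of 14 listed, 2 rose (*brk*, *sog*), 4 fell (*dpp*, *Doc1*, *Doc3*, *pnr*) and 5 did not pass. Their median log2 change was -1.05, beside -0.001 over all genes tested. *Doc1*, a T-box gene of the dorsal ectoderm and amnioserosa, was at 10.6, 38.7 and 63.6 CPM in *ind* cells and at 68.4, 75.2 and 199 CPM in the others, with no overlap and a log2 change of -1.35 (SE 0.22, FDR 0.000646). The GATA factor gene *pnr* was at -1.05 (FDR 0.0255) and *Doc3* at -1.17 (FDR 0.0343). Each of these last calls was lost when any of 5 of the 7 libraries was left out, for *pnr* all but replicates 2 and 7 and for *Doc3* all but replicates 2 and 3.

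The 4 markers named for this column beside *ind* were read next; they were picked with results of these cells known, so their direction is no independent evidence. *ths*, on 2R at 11756817 to 11814424 with 3 overlapping genes in the annotation, was at 323, 415 and 491 CPM in *ind* cells and at 121, 185 and 325 CPM in the cells without. The groups overlapped only at replicates 4 and 2, and in every library *ind* cells were higher, with a log2 change of 1.01 (SE 0.124, FDR 1.28e-05). *sad*, on 3R at 11877235 to 11879754, encodes an enzyme of ecdysone synthesis. It was at 31.5, 59.9 and 84.5 CPM against 7.62, 22.2 and 28.7 CPM, with no overlap and a log2 change of 1.56 (SE 0.21, FDR 4.57e-05). *pyr*, on 2R at 11712263 to 11726345, was at 27.7, 113 and 135 CPM against 22.6, 58.7 and 97.8 CPM. It was higher in 5 of 7 libraries and its log2 change of 0.54 (SE 0.211) did not pass (FDR 0.415). It was lower in *ind* cells in replicate 2, at 36.7 against 90.2 CPM, and in replicate 4, at 54.6 against 57.4 CPM. Leaving out replicate 2 gave 0.71 (FDR 0.0478). Of the 90 *ind* cells, 86 had *ths*, 64 had *pyr*, 62 had both and 2 had neither.

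The third FGF ligand gene, *bnl*, which signals to tracheal cells, lies on 3R at 19794073 to 19836817. It was at 2.10, 21.1 and 42.4 CPM in *ind* cells and at 68.3, 97.4 and 128 CPM in the cells without, far apart in every library. Its log2 change was -2.32 (SE 0.295, FDR 1.91e-05). The share of thinned cells with *bnl* was closer, 16.7% of *ind* cells (9.64 to 26.0%) and 24.5% of the others (20.1 to 29.2%). Of the 3 FGF genes tested, 1 rose, 1 fell and *pyr* did not pass.

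**Figure D2:**
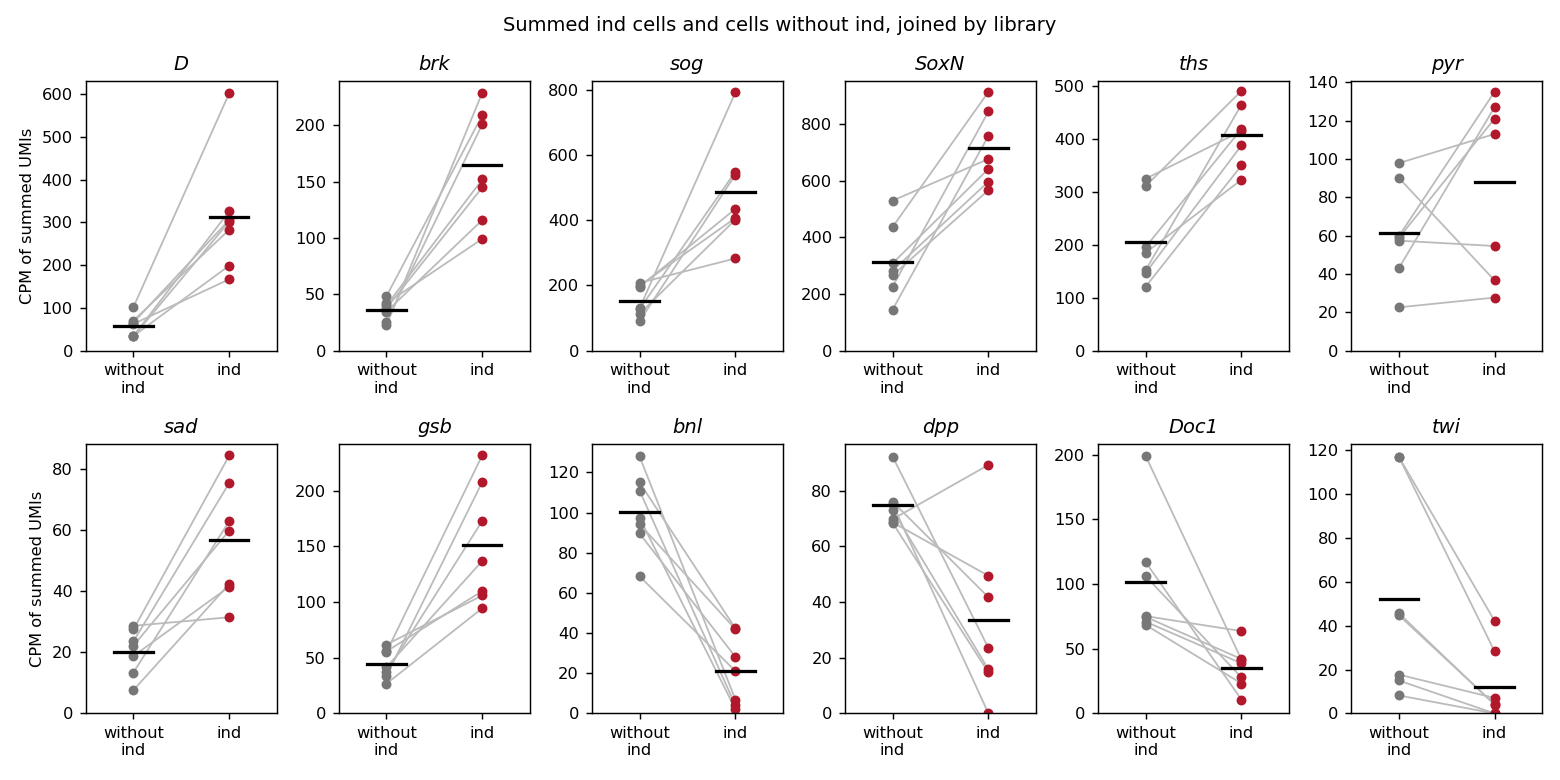
Level of 12 genes in CPM of the summed UMIs, in *ind* cells and in cells without *ind*, with 1 point per library, lines joining the classes of a library and black bars at the mean of 7 libraries. *D* runs from 167 to 602 CPM in *ind* cells and from 33.3 to 102 CPM in the others, while for *pyr* the lines cross.

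Neural and Notch genes were read from lists of their own. In the proneural and neuroblast list, 3 of 7 tested genes rose (*SoxN*, *sca* and *pros*) and none fell, with a median log2 change of 0.20. *sca*, which encodes a secreted protein that spaces neural precursors, was at 275, 343 and 561 CPM against 95.2, 138 and 278 CPM, a log2 change of 1.28 (SE 0.156, FDR 1.14e-05). *pros*, a homeodomain gene of dividing neural precursors, was at 0.91 (FDR 0.0419), a call lost when any of replicates 2, 4, 5 and 6 was left out. The proneural gene *l(1)sc* was nearly equal, with means of 40.7 ± 21.7 and 39.4 ± 11.2 CPM (log2 change -0.12, FDR 0.999). Of 10 Notch and Bearded genes tested, *Dl*, the Notch ligand, was at 0.36 (FDR 0.0145) and *E(spl)m4-BFM* at 0.57 (FDR 0.0291), and 8 did not pass. The call of *Dl* was lost without replicate 4 or 5, and that of *E(spl)m4-BFM* without any of replicates 1, 3, 4 and 5. The insulin-binding protein gene *ImpL2* was at 537, 866 and 1360 CPM against 307, 467 and 598 CPM, a log2 change of 1.03 (SE 0.12, FDR 6.13e-06). *Lrt*, which encodes a leucine-rich repeat protein, was at 1.27 (FDR 0.00956).

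In the EGF receptor pathway, 3 of 12 tested genes fell (*rho*, *kek1* and *edl*), none rose and the median log2 change was -0.11. *rho*, which encodes the protease that releases the ligand Spitz, was at 6.92, 23.8 and 56.5 CPM in *ind* cells and at 50.3, 76.6 and 158 CPM in the others. Its log2 change was -1.15 (SE 0.259, FDR 0.0143), lower in 6 of 7 libraries, and the call was lost without replicate 4 (FDR 0.0753). *kek1*, an inhibitor of the receptor, was at -1.31 (FDR 0.0458). It was lower in 6 of 7 libraries but reached 604 CPM in replicate 2, and leaving out any library except that one ended the call. *edl*, which encodes a partner of the ETS factors of the pathway, was at 0, 13.8 and 21.0 CPM against 23.0, 30.3 and 67.7 CPM, with no overlap (log2 change -1.60, SE 0.312, FDR 0.00389). Of 5 testable genes of ecdysone synthesis, *sad* and *phm* (0.54, FDR 0.048) rose; the call of *phm* held only without replicate 1 or replicate 2 among the libraries left out.

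Several of the genes that fell are known from mesoderm or dorsal cells. *twi*, the mesoderm factor, was at 0, 4.20 and 42.2 CPM in *ind* cells and at 8.20, 44.8 and 117 CPM in the cells without (log2 change -2.16, SE 0.28, FDR 2.67e-05). The cell adhesion gene *CadN* was at 0, 2.10 and 17.7 CPM against 7.52, 25.1 and 174 CPM (log2 change -2.72, SE 0.316, FDR 6.13e-06), and the GATA factor gene *grn* was at -2.62 (FDR 9.75e-06). Summed over the 7 mesoderm markers, *ind* cells held 165 to 290 CPM per library and cells without *ind* 201 to 996 CPM. Only 2 of the 7 could be tested, and *Ilp4* did not pass (log2 change -0.54, FDR 0.281). *Ilp4* was at means of 200 and 321 CPM, was higher in *ind* cells in 4 of 7 libraries, and was in 80.0% and 81.3% of thinned cells. The marker *htl*, the FGF receptor of the mesoderm, had 5 UMIs in all *ind* cells together. It was in 2.22% of thinned *ind* cells and 11.3% of the others. Over 10 dorsal ectoderm and amnioserosa markers the sums were 52.9 to 346 CPM in *ind* cells and 350 to 779 CPM in the others, and 3 of 7 tested fell. With every cell that had *twi* or *sna* left out of both classes, 58 genes passed, and *D* (2.69), *SoxN* (1.08), *ths* (0.87), *bnl* (-3.05) and *Doc1* (-1.99) stayed past the threshold. Among the single genes followed that could still be tested in that fit, 22 kept their side of the threshold and 5 lost the call. Others could no longer be tested. Without replicate 4, and with all such cells kept, 53 genes passed. With each cell thinned to 5000 UMIs 26 genes passed, of only 1163 that could then be tested.

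The position of the *ind* cells along the anteroposterior axis was read from the segmentation genes, which the rule did not use. With cells thinned to 12500 UMIs, 88.9% of *ind* cells had at least 1 of 9 gap genes, and 88.7% of the cells without. All cells of both classes had a pair-rule gene and a segment polarity gene, with medians of 5 pair-rule genes in each class. A Hox gene was found in 85.6% of *ind* cells and 94.0% of the others. *Kr*, the gap gene of the middle of the embryo, was detected in 60.0% (49.1 to 70.2%) and 46.2% (40.9 to 51.4%) of cells, and its level was 0.72 higher on the log2 scale (SE 0.135, FDR 0.0027, 7 of 7 libraries). With cells thinned to 5000 UMIs *Kr* did not pass (0.63, FDR 0.18).

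The head gap gene *tll* was detected in 1 of 90 *ind* cells before thinning. After thinning it was in 0 of 90, which allows a share of cells with a UMI of up to 4.02% (exact 95% limit), and in 1.37% of the others. The posterior Hox gene *Abd-B* fell, with a log2 change of -1.28 (SE 0.272, FDR 0.00901), and was lower in 7 of 7 libraries. Its call was lost without replicate 7 (FDR 0.0558). The share of thinned cells with *Abd-B* was close, 11.1% of *ind* cells (5.46 to 19.5%) and 13.2% of the others (9.89 to 17.1%). Among Hox genes *Antp* was seen in 64.4% of *ind* cells, *Ubx* in 44.4%, *abd-A* in 30.0%, *Dfd* in 6.67% and *Scr* in 4.44%. In the cells without *ind* those shares were 63.7, 49.2, 35.4, 13.5 and 5.22%.

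Pair-rule and segment polarity genes were read cell by cell in the *ind* cells. Before thinning, 33 had *eve*, 50 had *ftz*, 17 had both and 24 had neither of these pair-rule genes. Of the segment polarity genes, 41 had *en*, 35 had *wg*, 12 had both and 26 had neither. *gsb*, a paired-type homeobox gene of the posterior part of each segment, was the 1 segment polarity gene of 7 tested that rose against the cells without *ind*. It was not particular to *ind* cells, since 45.5% of the thinned *vnd* cells described below had it. It was at 94.5, 137 and 232 CPM in *ind* cells and at 26.7, 41.6 and 61.8 CPM in the others, with no overlap (log2 change 1.61, SE 0.174, FDR 2.92e-06), and was detected in 45.6% and 20.9% of thinned cells. Of the 9 pair-rule genes, *slp1* (0.52, FDR 0.0458) and *slp2* (1.07, FDR 0.032) rose; leaving out 5 of the 7 libraries in turn ended the call of *slp1*, and 5 of 7 that of *slp2*, replicates 4, 6 and 7 among them for both.

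**Figure D3:**
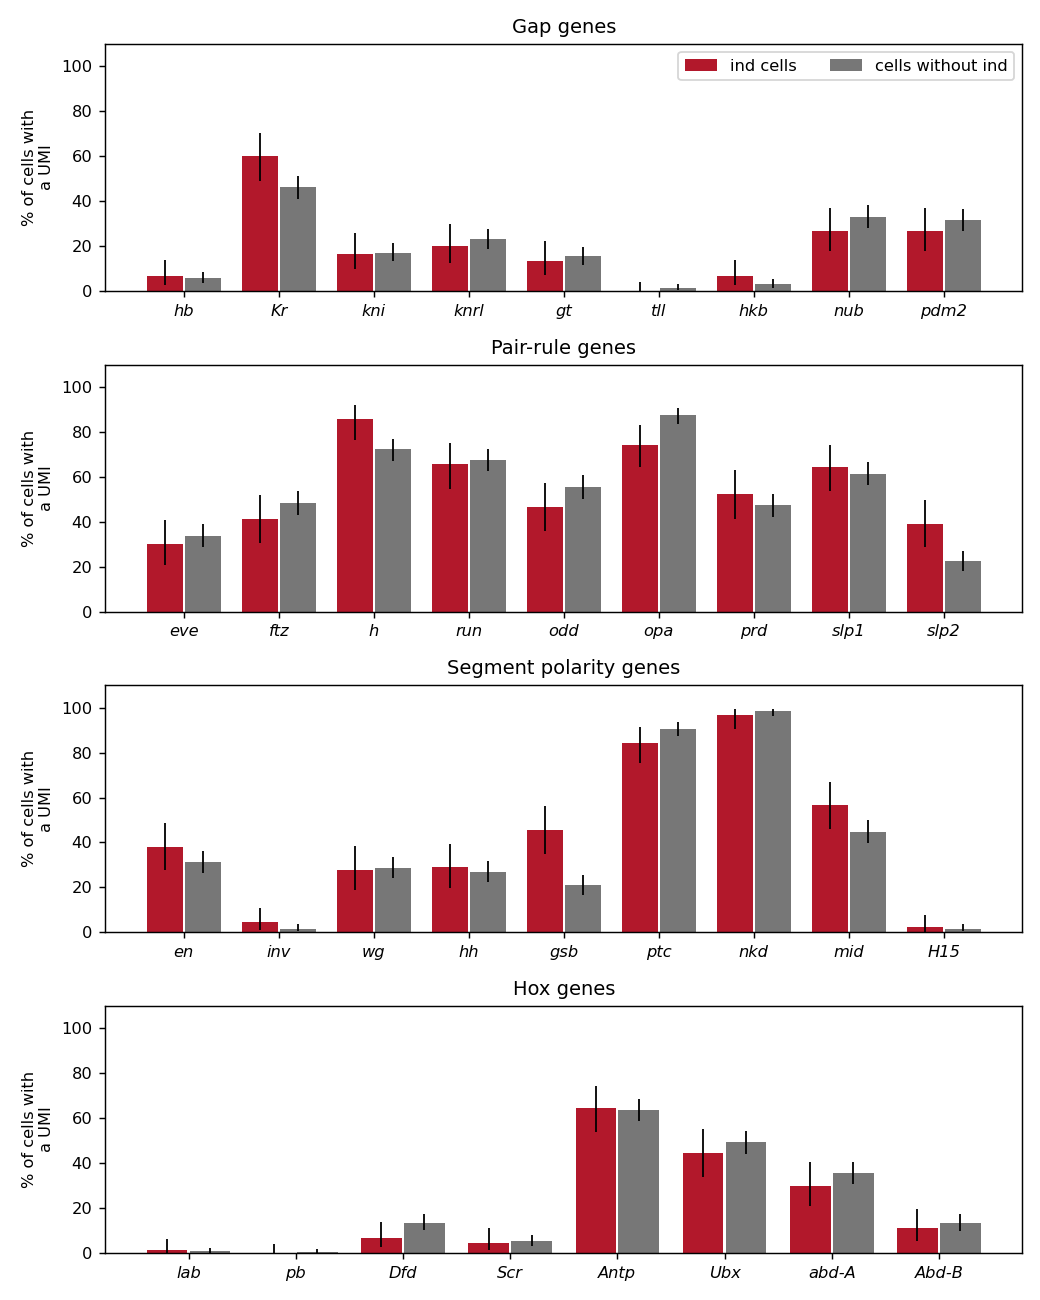
Percentage of cells with at least 1 UMI of each gap, pair-rule, segment polarity and Hox gene after thinning every cell to 12500 UMIs, in 90 *ind* cells (red) and 364 cells without *ind* (grey), with exact binomial 95% intervals. *gsb* is at 45.6% and 20.9%, and *Antp* at 64.4% and 63.7%.

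The ventral neighbours came next, as 101 cells ending in 3 with *vnd* and neither *sim* nor *ind*, between 5 and 35 per library. All 7 libraries entered the test. The *ind* cells are the same as above, so this comparison and the first share them. Of 2996 genes tested, 52 (1.74%) passed, 22 (0.734%) higher in *ind* cells and 30 (1.00%) lower. The genes lower in *ind* cells included the *vnd* reporter and 6 genes of the EGF receptor pathway, and the higher ones included *aop* and *cic*.

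The reporter is one of *vnd*, whose UMIs chose both classes, so its difference follows that choice and is no independent evidence on the *ind* cells. pDsRed was at 1950, 2980 and 3510 CPM in *vnd* cells and at 15.7, 96.9 and 615 CPM in *ind* cells, a log2 change of -4.22 (SE 0.259, FDR 1.98e-10). Every library of *vnd* cells was above every library of *ind* cells. In the cells without *ind* pDsRed was at 48.9, 218 and 310 CPM, and it did not pass against *ind* cells (log2 change -0.34, FDR 0.991). The other transgene was almost unseen, with pGal4 in 1 of 90 *ind* cells.

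Within the EGF receptor pathway, 11 of 15 listed genes could be tested, of which 6 were lower in *ind* cells, 2 higher and 3 did not pass. The median log2 change of the 11 was -0.89, beside 0.004 over all genes tested. The ligand gene *vn* was at 9.93, 13.8 and 38.8 CPM in *ind* cells and at 17.7, 119 and 165 CPM in *vnd* cells, lower in every library (log2 change -2.49, SE 0.244, FDR 4.5e-07). *rho* was at 6.92, 23.8 and 56.5 CPM against 119, 175 and 294 CPM, with no overlap and a log2 change of -2.48 (SE 0.253, FDR 7.51e-07). *S*, whose protein carries Spitz to the site of its cleavage, was at 70.6, 132 and 189 CPM against 204, 230 and 296 CPM (log2 change -0.89, SE 0.128, FDR 0.000111). The ligand gene *spi* itself was level, at means of 232 ± 36.8 and 219 ± 32.2 CPM (log2 change 0.02, SE 0.114, FDR 1).

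At the nuclear end of the pathway the members moved in opposite directions. *pnt*, the ETS activator on 3R at 23290231 to 23346167, was at 10.5, 27.3 and 48.5 CPM in *ind* cells and at 63.2, 121 and 180 CPM in *vnd* cells (log2 change -2.05, SE 0.186, FDR 1.51e-07). *aop*, the ETS repressor Yan on 2L at 2156484 to 2178754, was at 269, 338 and 414 CPM against 70.7, 154 and 185 CPM (log2 change 1.34, SE 0.128, FDR 2.84e-07). In both genes the classes did not overlap. *cic*, the repressor of *ind* named above, on 3R at 20252770 to 20303942, was at 65.1, 109 and 155 CPM in *ind* cells and at 8.84, 37.7 and 48.5 CPM in *vnd* cells, again apart in every library (log2 change 1.73, SE 0.189, FDR 1.75e-06). *edl* was the gene with the largest fall after the reporter, at 0, 13.8 and 21.0 CPM against 61.9, 100 and 162 CPM (log2 change -3.36, SE 0.303, FDR 1.51e-07).

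The receptor gene *Egfr* was at 68.7, 84.0 and 152 CPM in *ind* cells and at 24.2, 52.7 and 81.5 CPM in *vnd* cells (log2 change 0.93, FDR 0.0431), and the inhibitor *sty* was lower in *ind* cells (-0.90, FDR 0.0441). Both calls are fragile: that of *Egfr* was lost without any of replicates 1, 4, 6 and 7, and that of *sty* without any of replicates 2, 4, 5 and 7. In this table *pnt*, *rho*, *aop* and *cic* each overlap 1 other annotated gene and *Egfr* overlaps 5, so their counts may hold reads of a neighbour.

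**Figure D4:**
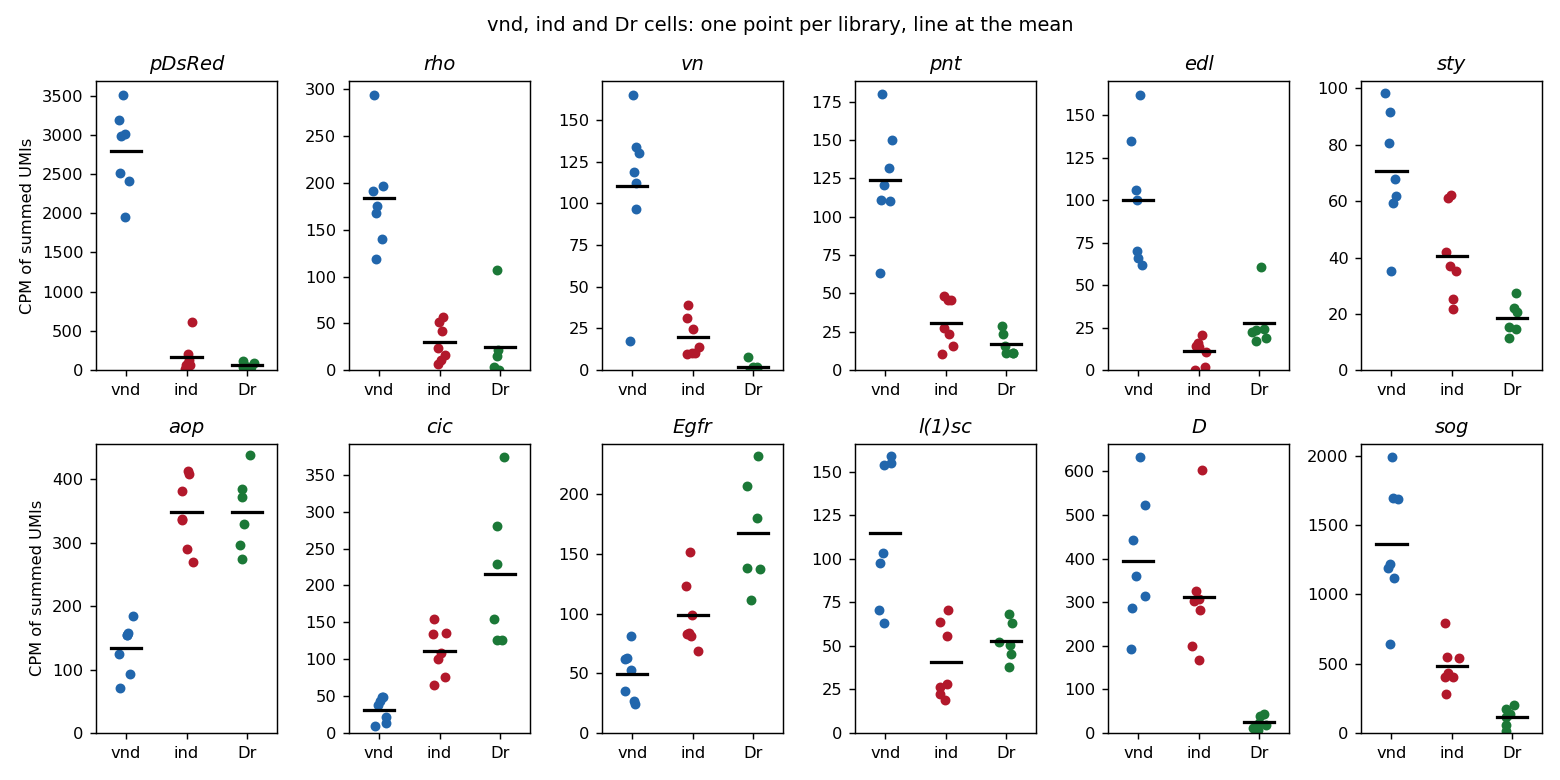
CPM of summed UMIs of 12 genes in *vnd* cells (blue), *ind* cells (red) and *Dr* cells (green), with 1 point per library, 7 for *vnd* and *ind* cells and 6 for *Dr* cells, and black bars at the means. *rho*, *vn*, *pnt* and *edl* have their highest means of the 3 classes in *vnd* cells, *aop* is at 348 CPM on average in *ind* cells and 134 CPM in *vnd* cells, and *D* is low only in *Dr* cells. Single points come close, with *vn* at 17.7 CPM in *vnd* cells of replicate 1 and *rho* at 107 CPM in *Dr* cells of replicate 6. Over the 6 libraries with *Dr* cells, *vn* is at means of 21.0 CPM in *ind* cells and 1.88 CPM in *Dr* cells, without overlap and not tested.

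Other genes also separated the columns. Of 8 proneural and neuroblast genes tested, 3 were lower in *ind* cells: *ac* (-1.80, FDR 0.00283), *l(1)sc* (-1.82, FDR 0.000325) and *esg* (-1.39, FDR 0.0141). *l(1)sc* was at 18.9, 27.8 and 70.6 CPM in *ind* cells and at 63.2, 103 and 159 CPM in *vnd* cells, lower in 5 of 7 libraries. The call of *esg* was lost without replicate 3, 4 or 7. *sog* was lower too, at 283, 435 and 792 CPM against 639, 1220 and 1990 CPM (log2 change -1.50, SE 0.157, FDR 9.34e-07), so its level in *ind* cells lay between those of *vnd* cells and of cells without *ind*. Of 9 Notch and Bearded genes tested, *Tom* (0.33, FDR 0.00841) and *BobA* (0.36, FDR 0.0136) rose and *E(spl)m7-HLH* (-1.17, FDR 0.00906) fell. *BobA* has near-identical copies, so its count is uncertain, and its call was lost without replicate 2, 4 or 7; that of *E(spl)m7-HLH* was lost without replicate 7.

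Further genes named by the rule were *cv-2*, which encodes a BMP-binding protein (1.42, FDR 0.0266), *CR45559*, the serotonin receptor gene *5-HT2A*, *ImpL2* (0.91, FDR 0.000497), *CG12420*, *Meltrin*, *CR44317* and *MESR3* among those higher in *ind* cells, with log2 changes from 0.78 to 1.42. Leaving out single libraries ended the calls of *cv-2* (replicate 2 or 6), *CR45559* (2 or 4), *5-HT2A* (6 or 7), *Meltrin* (3) and *MESR3* (3, 6 or 7). Lower in *ind* cells were *Ndae1* (-2.40), *Cyp310a1* (-2.01), *CG3036* (-1.93), *Ilp4*, which encodes an insulin-like peptide (-1.85), and *toc* (-1.83), with FDR values up to 0.000188. *Ilp4* is also a mesoderm marker of the list, and over all 7 of those markers *vnd* cells held 476 to 2300 CPM per library. The part of mesodermal RNA in this comparison was not tested.

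The column markers themselves did not separate *ind* from *vnd* cells. *SoxN* (log2 change -0.13, SE 0.103, FDR 0.835), *ths* (0.17, SE 0.154, FDR 0.886), *pyr* (0.35, SE 0.255, FDR 0.805) and *sad* (-0.24, SE 0.201, FDR 0.861) all overlapped between the classes, and so did *D* (-0.38, SE 0.15, FDR 0.408) and *brk* (-0.27, SE 0.14, FDR 0.609). Classes also overlapped for *gsb* (-0.01, SE 0.292), *sca* (0.03, SE 0.169) and *Lrt* (-0.50, SE 0.257, FDR 0.606), and none of these passed. A p that misses the threshold does not show that the levels are equal. Thinning to 5000 UMIs left 523 genes to test, of which 7 passed, and leaving out replicate 7 left 29.

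The lateral neighbours were 86 cells ending in 3 with *Dr* and no *vnd*, *sim* or *ind*, which are part of the 364 cells without *ind*. Replicate 1 had 2 of them and was left out, so 6 libraries were compared. Of 2908 genes tested, 23 (0.791%) passed, 14 (0.481%) higher in *ind* cells and 9 (0.309%) lower. The *ind* cells held more *D*, *fend*, *sog*, *brk*, *gsb*, *emc*, *tkv*, *MFS14* (listed under an older symbol), *scyl* and *ImpL2*, and less *Dll*, *bnl*, *Atx-1*, *CG10479*, *endos*, *drm* and *cic*.

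*D* separated these classes more widely than any other gene named, from 167 to 326 CPM in the 6 libraries of *ind* cells and from 7.49 to 43.7 CPM in *Dr* cells (log2 change 3.45, SE 0.209, FDR 5.12e-12). *sog* ran from 283 to 792 CPM against 11.4 to 204 CPM (2.03, SE 0.231, FDR 3.05e-06) and *brk* from 99.3 to 209 CPM against 11.4 to 72.5 CPM (1.69, SE 0.231, FDR 5.66e-05). None of these 3 genes overlapped between the classes. *tkv*, which encodes a Dpp receptor, was at 0.96 (FDR 0.0308), a call lost when any of replicates 2, 4, 5, 6 and 7 was left out. *emc*, an inhibitor of proneural proteins, was at 1.10 (SE 0.162, FDR 0.000136), *fend* at 2.37 (FDR 6.53e-05), *gsb* at 1.23 (FDR 0.000279), *scyl* at 0.87 (FDR 0.00024) and *Kr* at 0.72 (FDR 0.0308). The calls of *ImpL2* (0.82, FDR 0.00458) and *MFS14* (0.95, FDR 0.0101) were lost without replicate 5, that of *MFS14* also without replicate 7, and that of *Kr* without any of replicates 2, 5, 6 and 7.

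On the other side, *Dll*, the homeobox gene of the limb primordia, ran from 1.17 to 42.0 CPM in *ind* cells and from 19.1 to 340 CPM in *Dr* cells (log2 change -3.01, SE 0.474, FDR 0.000279), lower in 6 of 6 libraries, with the top value in replicate 6. *bnl* ran from 2.10 to 42.4 CPM against 7.63 to 369 CPM (-2.11, SE 0.355, FDR 0.000705), its top value again in replicate 6. *Atx-1*, related to human ataxin-1, ran from 42.0 to 593 CPM against 763 to 2330 CPM (-1.83, SE 0.265, FDR 0.000108), and *CG10479* from 5.25 to 77.7 CPM against 87.7 to 116 CPM (-1.47, SE 0.249, FDR 0.000712). *endos* (-0.93, FDR 0.0463) and *drm* (-0.88, FDR 0.0449) lost their calls without any of 5 and of 4 of the 6 libraries. DESeq2 called neither *Dll*, *bnl*, *Atx-1*, *endos* nor *drm*.

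*cic* was lower in *ind* cells than in *Dr* cells in 6 of 6 libraries, from 65.1 to 155 CPM against 126 to 374 CPM (log2 change -0.78, SE 0.15, FDR 0.00407). Over these 6 libraries its mean was 117 CPM in *ind* cells and 215 in *Dr* cells. Over all 7 libraries it was 31.6 CPM in *vnd* cells and 111 in *ind* cells. *aop* did not differ between *ind* and *Dr* cells beyond the spread (log2 change 0.00, SE 0.116, FDR 0.999). *Egfr* (-0.70, SE 0.19, FDR 0.101) and the column markers *sad* (0.83, SE 0.252, FDR 0.195), *ths* (0.38, SE 0.147, FDR 0.685), *SoxN* (0.29, SE 0.119, FDR 0.793) and *pyr* (-0.11, SE 0.239, FDR 0.987) did not pass. For *pyr* even the sign is unsettled, at 0.15 without replicate 2. Thinning left 615 genes to test, of which 4 passed, and leaving out replicate 5 left 15.

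The *ind* cells were then split by their own *ind* UMIs, as a description only, since this uses the gene that chose them. The cells with 1 UMI had a median of 24044 UMIs in all, those with 2 to 4 had 15716 and those with at least 5 had 22177. *D* was at 120 CPM in the cells with 1 UMI of *ind*, 268 CPM in those with 2 to 4 and 484 CPM in those with at least 5. *brk* was at 112, 173 and 244 CPM, *sog* at 343, 680 and 786 CPM and *SoxN* at 528, 1010 and 969 CPM over the same classes. *Dr* went the other way, at 30.1, 14.7 and 3.56 CPM, as did *l(1)sc* at 62.9, 44.2 and 17.8 CPM, and pDsRed was at 287, 244 and 84.6 CPM. *pyr* was at 133, 114 and 96.2 CPM, and *rho* at 46.5, 27.4 and 37.4 CPM. In these sums the 24 cells with 1 UMI thus held less *D*, *brk*, *sog* and *SoxN* than the rest, and more *Dr*, *l(1)sc*, pDsRed, *pyr* and *rho*. *SoxN* was in 19 of them and in all 66 others. Shares of cells with a UMI were 70.8, 73.9 and 74.4% for pDsRed and 75.0, 60.9 and 74.4% for *pyr*. For the other genes of these sums the shares differed in the same direction as the CPM. The sums pool all libraries without a block, and replicate 1, where *D* was highest, had no cell with 1 UMI of *ind*. Requiring at least 2 UMIs of *ind* gave 102 genes past the threshold against the cells without *ind*.

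A related contrast was made in cells the chosen table does not hold. It required *SoxN* in both classes and used no closing number, unlike the contrast of the chosen cells. Among the chosen cells, before thinning, *SoxN* was in 94.4% of *ind* cells and 62.4% of the cells without. In the 7 libraries, 3806 further *D. melanogaster* barcodes had at least 3000 UMIs. Of these, 214 had *SoxN* and *ind* but no *vnd* or *sim*, with a median of 7788.5 UMIs, and 1293 had *SoxN* and none of the 3, with a median of 6824. These barcodes share no cell with the chosen table, but they come from the same 7 libraries. *SoxN* chose them and was not tested. Of 5004 genes tested, 32 (0.639%) passed, 17 (0.340%) higher in *ind* barcodes and 15 (0.300%) lower.

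*ImpL2* rose again, at 344, 555 and 825 CPM against 237, 287 and 466 CPM, higher in 7 of 7 libraries (log2 change 0.85, SE 0.0769, FDR 9.61e-07), as did *sca*, at 213, 295 and 466 CPM against 141, 199 and 211 CPM (0.67, SE 0.0954, FDR 0.000814). *D* was at 0.88 (SE 0.154, FDR 0.00602), *ths* at 0.78 (SE 0.148, FDR 0.0125), *brk* at 0.71 (SE 0.148, FDR 0.023), *sad* at 1.03 (SE 0.237, FDR 0.0454), each higher in 6 of 7 libraries, and *Lrt* at 0.98 (FDR 0.0454). *rho* fell, at 4.14, 37.8 and 52.2 CPM against 55.6, 81.8 and 137 CPM with no overlap (-1.18, SE 0.209, FDR 0.00729), and so did *edl* (-0.97, FDR 0.0106) and *kek1* (-0.76, FDR 0.0106). pDsRed was lower in every library here (-0.77, SE 0.128, FDR 0.00412), as was *wntD*, which encodes a Wnt-family inhibitor of Dorsal (-1.83, FDR 0.00412). *Brd*, of the Bearded family, rose (0.41, SE 0.0634, FDR 0.00225), and *aop* was at 0.45 (FDR 0.0421).

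Several of these calls rest on single libraries. Those of *D* (replicates 1 and 5), *ths* (1, 2, 3 and 7), *edl* (3), *kek1* (5) and *wntD* (4) were lost when the replicates in brackets were left out in turn. Those of *sad*, *brk*, *aop* and *Lrt* were each lost under at least 5 of the 7 libraries left out. *ImpL2*, *sca*, *rho*, pDsRed and *Brd* passed with any library left out. The count itself ran from 11 without replicate 1 to 95 without replicate 6, was 73 without barcodes over 12500 UMIs and was 5 in the single-species libraries alone. In those libraries the log2 changes of *D* (0.59, FDR 0.304) and *ths* (0.51, FDR 0.504) did not pass.

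Most of the chosen cells' calls did not pass in the barcodes outside. Both classes there held *SoxN*, and the part of this difference in rule was not tested. All 85 genes called in the chosen cells and not read by either rule were tested there, and 15 of them passed, which is 17.6% of the former calls and 46.9% of the 32 outside, all with the same sign. Over all 85 the sign was shared by 78, and over the 4412 genes tested in both by 2313. *gsb* was at 0.19 (SE 0.168, FDR 0.914) and *sog* at 0.45 (SE 0.118, FDR 0.0933) outside. *bnl* was level at 0.02 (SE 0.211, FDR 1), with 22.3 to 131 CPM in *ind* barcodes and 25.6 to 86.6 CPM in the others. *CadN* was at -0.15 (SE 0.427, FDR 0.988) and ran up to 458 CPM in replicate 6. *twi* was at -0.69 (FDR 0.168), and the 7 mesoderm markers summed to between 407 and 2650 CPM in *ind* barcodes. *pyr* was at 0.13 (SE 0.149, FDR 0.949). The 7 genes with the opposite sign were *apt*, *bnl*, *bxd*, *CR43887*, *Gbs-70E*, *pnr* and *pros*, named after their values were seen.

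**Figure D5:**
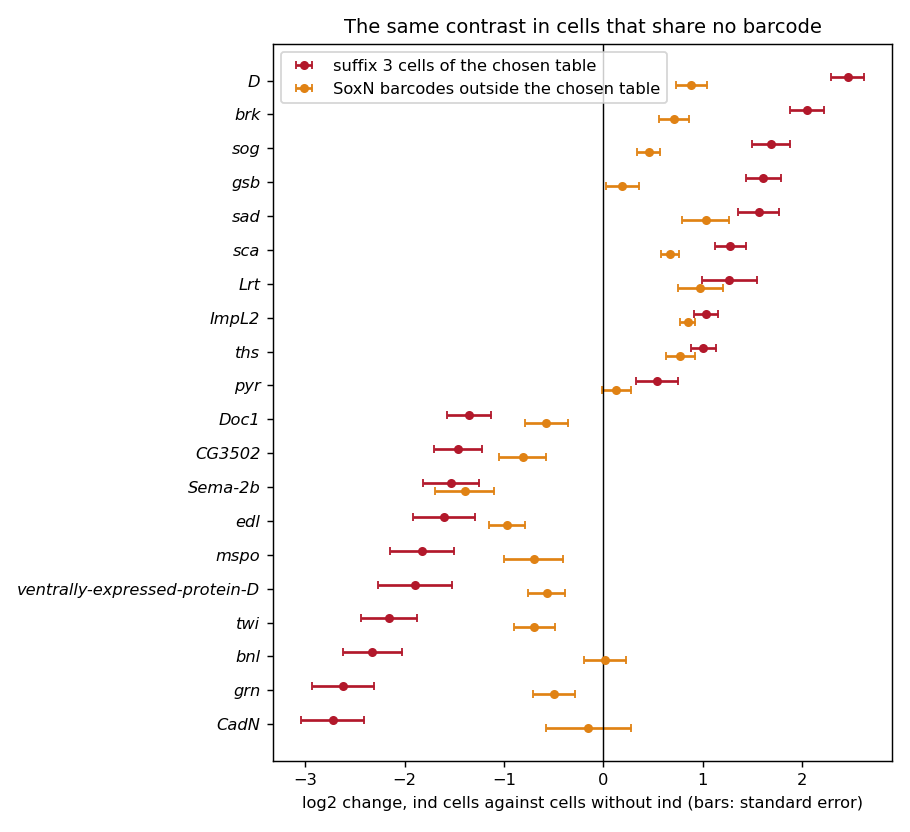
Log2 change between *ind* cells and cells without *ind*, with standard errors, in the chosen cells ending in 3 (red) and in *SoxN* barcodes outside the chosen table (orange), for *pyr* and for the genes of largest change in the chosen cells. *D* is at 2.46 and 0.88, *ImpL2* at 1.03 and 0.85, and *bnl* at -2.32 and 0.02.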

How the data were processed

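The 7 Drop-seq libraries were analysed. The deposited values are unscaled counts of UMIs; the submitters' processing notes name STAR, HTSeq and BDGP6 without role, and the rule that chose the 1297 cells, the meaning of the closing number and the treatment of doublets are not given in the sources used here. No doublet caller was run. Every chosen barcode was found in exactly 1 library's own table. The counts used come from those tables, *D. melanogaster* genes only. For cells ending in 3 they differed from the pooled table by at most 2.7% of a cell's UMIs. No 2 libraries shared more than 5 barcodes.

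Counts were summed per library and class (at least 3 cells) and tested with edgeR 4.0.16 in R 4.3.3 (TMM, filterByExpr, quasi-likelihood F test with the library as block, two-sided, Benjamini-Hochberg over all genes tested, FDR 0.05). Both classes of a pair come from 1 library, which is where the pairing comes from. SE were derived from F. CPM are over the summed UMIs. Barcodes outside the chosen table needed 90% of UMIs on *D. melanogaster* genes. Alternatives were DESeq2 1.42.0, no low-count filter, no block, thinning, other minimums and leaving out each library. On simulated data with known changes, 2-fold changes were recovered at 96% (cells without *ind*), 92% (*vnd*), 92% (*Dr*) and 84% (outside). The simulated libraries differed only in depth and random spread. Only genes that passed the count filter were used, with 100 changed 2-fold and 100 changed 4-fold. Recovery in the real data may be lower. Against cells without *ind*, for example, *Doc2* at -1.33 did not pass (FDR 0.0689).

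Named genes were up to 10 per direction with the largest change past the threshold, the same direction in every library and at least 10 CPM in the higher class, plus the markers and fixed lists. The members, lists and markers were chosen with earlier results of these data known. Positions were looked up by symbol (159 of 171 genes) or synonym (7). The listed *mae* is *edl* in the tables. Tables were handled with pandas 2.3.3 and numpy 2.4.6 in Python 3.11.15, tests over libraries run with scipy 1.17.1 and figures drawn with matplotlib 3.10.9. Depth was 8855169 to 21429520 UMIs per library. The bulk libraries were not used here.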

Additional observations from a re-analysis of the deposited data

Results flagged for a closer look

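In 13 of 119 groups of libraries for named genes, 1 library stood apart from the others by Dixon's test; chance gives about 1 in 20 groups. In *ind* cells these were *ind* in replicate 1 (956 CPM, next 275), *D* in replicate 1 (602, next 326), *grn* in replicate 2 (47.2, next 13.8) and pDsRed in replicate 6 (615, next 201). In the cells without *ind* they were *Lrt* (41.4, next 16.4) and *Doc1* (199, next 117) in replicate 1, and *CadN* (174, next 51.5) and *ventrally-expressed-protein-D* (134, next 45.5) in replicate 6. In *vnd* cells *Cyp310a1* was at 485 CPM in replicate 5 (next 168) and *CG3036* at 400 CPM there (next 167). In *Dr* cells *sad* was at 80.1 CPM in replicate 7 (next 34.3), and replicate 6 held *Dll* at 340 CPM (next 101) and *bnl* at 369 CPM (next 129).

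*SoxN* differed in sign between the kinds of library: *ind* cells minus *Dr* cells was -120 CPM in replicate 2, the 1 mixed-species library used there, and 150 CPM on average in the single-species libraries. This difference was not tested.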

How the results depend on the processing

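The number of genes past the threshold moved with several choices. Against cells without *ind* (86), it was 158 with no low-count filter, 38 with no replicate block, 26 with thinned cells and 53 to 94 with 1 library left out. Against *vnd* cells (52), it was 122, 23, 7 and 29 to 57 under the same changes. Against *Dr* cells (23), it was 52, 12, 4 and 15 to 23, and 12 with DESeq2. Outside the chosen table (32), it was 113 with no filter, 8 with no replicate block, 73 without barcodes over 12500 UMIs, 5 in the single-species libraries and 11 to 95 with 1 library left out. Thinning also left fewer genes to test (1163, 523 and 615). Thinned counts come from 1 random draw and vary between draws. Leaving out deep barcodes or *twi* or *sna* cells and using the single-species libraries alone were chosen after seeing the data. The fit without the replicate block ignores that both classes come from the same library. The log2 change of *pyr* against *Dr* cells was -0.11 and turned to 0.15 in the single-species libraries, which is also the fit without replicate 2, and to 0.01 without replicate 4, with -0.28 the lowest value with 1 library left out. That of *SoxN* against *vnd* cells was -0.13 and turned to 0.02 with thinned cells. The share of *ind* cells was 8.22% thinned and 11.0% with at least 2 UMIs of *ind*. The depth difference was 947.5 to 2494 UMIs with 1 library left out, and 2494 without replicate 6 passed. Of the single-gene values under an alternative, 1194 kept direction and side of the threshold, 295 kept the direction and lost the call, 1 gained it and 4 turned sign, 3 of *pyr* and 1 of *SoxN*. The minimum of 5 cells kept every cell of the main fit, so its 35 values could not change. The fit against *Dr* cells without replicate 2 is counted again as the single-species fit. Genes that could not be tested under an alternative are not counted. The causes of the changes were not tested. Counts of a few UMIs per cell limit genes below about 10 CPM.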

Other observations

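Of the 29 cells ending in 3 that the rule left out, 19 had *ind* and *vnd* but no *sim*. They were deeper than the *ind* cells, with a median of 31186 UMIs against 20539. Over their summed UMIs pDsRed was at 1990 CPM, beside 181 CPM over the *ind* cells and 2980 CPM over the *vnd* cells. *aop* was at 290 CPM, beside 404 and 158, and *cic* at 48.5 CPM, beside 129 and 38.1. *rho* was at 84.6 CPM (38.2 and 194), *vn* at 87.4 (24.9 and 144), *edl* at 61.0 (12.9 and 138) and *pnt* at 108 (38.2 and 156). *D* was at 481 CPM, above both classes (325 and 379). The other 10 cells had *ind* and *sim*, with a median of 38605.5 UMIs and pDsRed at 3690 CPM. Whether these barcodes hold 1 cell or more was not tested.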
